A study of Mus musculus with 9 samples.

Results

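The trigeminal ganglion (TG) was compared between mice on day 3 after injection of complete Freund's adjuvant (CFA) into the temporomandibular joint (TMJ) and mice injected with saline, in 6 of the 9 RNA-seq libraries of the study. The libraries were taken by their labels, as saline replicates 1 to 3 and CFA3D replicates 1 to 3. All mice were wild-type male C57BL/6 mice aged 8 weeks with no transgene. They received a unilateral intra-articular injection of 10 µl, of saline or of CFA at 5 mg/ml. The labels place saline and CFA3D libraries both on day 3. Each library was a pool of TG from 3 mice, so n = 3 pools a group, and p-values measure the spread between pools rather than between animals. The 3 CFA6D libraries, taken on day 6 after CFA, entered the model for the estimate of spread, and their values are given only beside those of day 3.

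The TG holds the cell bodies of the sensory neurons that supply the face and the jaw joint, wrapped by satellite glia and joined by Schwann cells, resident macrophages, fibroblasts and vessels. CFA is a suspension of killed mycobacteria in oil that sets off a lasting local inflammation, and injected into the joint it is a standard model of inflammatory TMJ pain. Nociceptors, the neurons that sense tissue damage, fall broadly into a peptidergic class, which makes calcitonin gene-related peptide, and a non-peptidergic class, which depends on Ret, the receptor of the GDNF family of growth factors. Inflamed tissue releases nerve growth factor, prostaglandins and cytokines that act on the endings of these neurons and can change transcription in their cell bodies.

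The deposited values are FPKM, the fragments of a transcript divided by its length in kilobases and by the size of the library, and were added up per gene. By the smallest steps in the tables, saline replicate 2 had the fewest read pairs, CFA3D replicate 1 had the most at 42.2 M, and a single pair in 1 kb of sequence counted for 0.0237 to 0.0333 FPKM across the 6 libraries. Sensory neuron markers had a summed level of 2444 to 2973 FPKM in saline and 2778 to 3354 FPKM in CFA3D, so all 6 libraries carried ganglion RNA. Some libraries also carried RNA of other tissue. Summed anterior pituitary markers reached 10720 FPKM in saline replicate 3, against 100 and 8.93 FPKM in saline replicates 1 and 2 and 14.3 to 20.9 FPKM in CFA3D. Skeletal muscle markers summed to 298 FPKM in saline replicate 2 and 78.0 FPKM in saline replicate 1, against 23.2 FPKM in saline replicate 3 and 13.6 to 27.1 FPKM in CFA3D. White adipocyte markers summed to 156 FPKM in saline replicate 2 and to 10.2 to 14.4 FPKM in the other 5 libraries. Where leaving out these or other single libraries turned or strongly moved a value below, that value is given too.

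**Figure D1:**
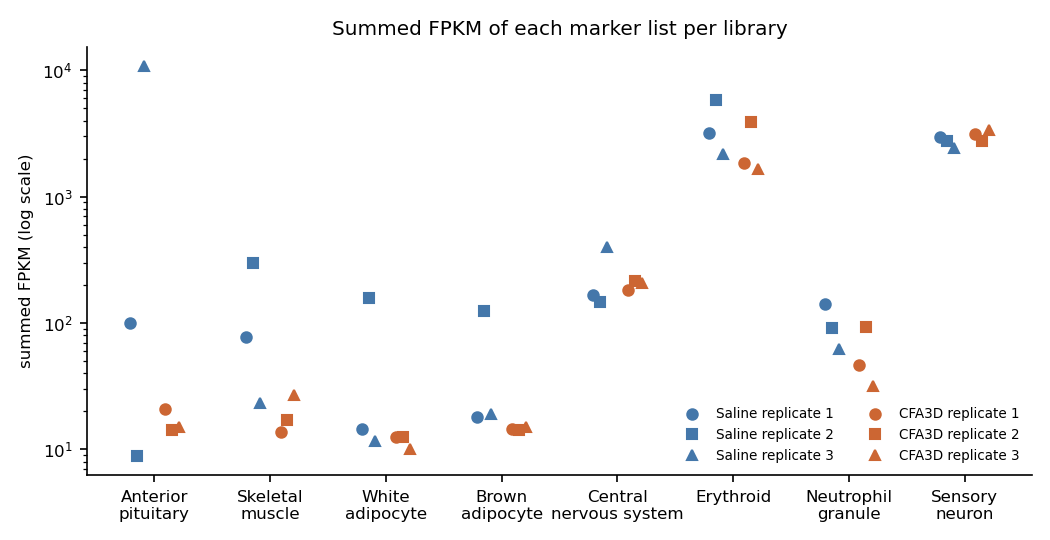
Summed FPKM of 8 marker lists (horizontal axis) in each of the 3 saline (blue) and 3 CFA3D (orange) libraries, on a log axis, with circles, squares and triangles for replicates 1, 2 and 3. Pituitary markers stand out at 10720 FPKM in saline replicate 3 and fat and muscle markers in saline replicate 2, while sensory neuron markers lie between 2444 and 3354 FPKM in all 6 libraries.

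Differences between day 3 and saline were small for most genes. Of 16110 gene sums of the mRNA table that were tested, 717 (4.45%) had an unadjusted p under 0.05, of which 587 (3.64%) were higher and 130 (0.807%) were lower in CFA3D. The smallest Benjamini-Hochberg adjusted p of any gene sum in limma was 0.997, so no gene sum passed at 0.05 after adjustment, and every statement below on gene sums rests on unadjusted p-values. With a minimum log2 difference of 1 in size in addition, 55 gene sums (0.341%) were called, 12 (0.0745%) higher and 43 (0.267%) lower. The 3 CFA3D libraries all lay above the 3 saline libraries for 1130 gene sums (7.01%) and all below for 341 (2.12%), so the groups did not overlap for 9.13%. The balance of higher to lower depended on scaling and on the saline libraries. Higher gene sums made up 81.9% of those with an unadjusted p under 0.05, 58.1% after quantile normalization, 59.1% without saline replicate 2 and 68.8% without saline replicate 3. Without both of these saline libraries the balance was gone, with 270 higher and 281 lower (49%) and a median log2 difference over all gene sums of -0.03. The median log2 difference over all gene sums was 0.055, or 0.013 after quantile normalization, and the fold changes below are on the scale of log2(FPKM + 0.1), which understates the change of low genes.

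A core of 44 gene sums (0.273% of those tested) kept an unadjusted p under 0.05 in the same direction in each of 18 alternative settings that tested them, including the fit without saline replicates 2 and 3. These 44 are 6.14% of the 717, 35 (0.217%) higher and 9 (0.0559%) lower on CFA3D, and they were singled out after their values had been seen. Because they were chosen by their p on these same libraries, the separation of the groups given for them below adds no evidence of its own. These genes fall into no single class, and those with a known role in neurons are described first.

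**Figure D2:**
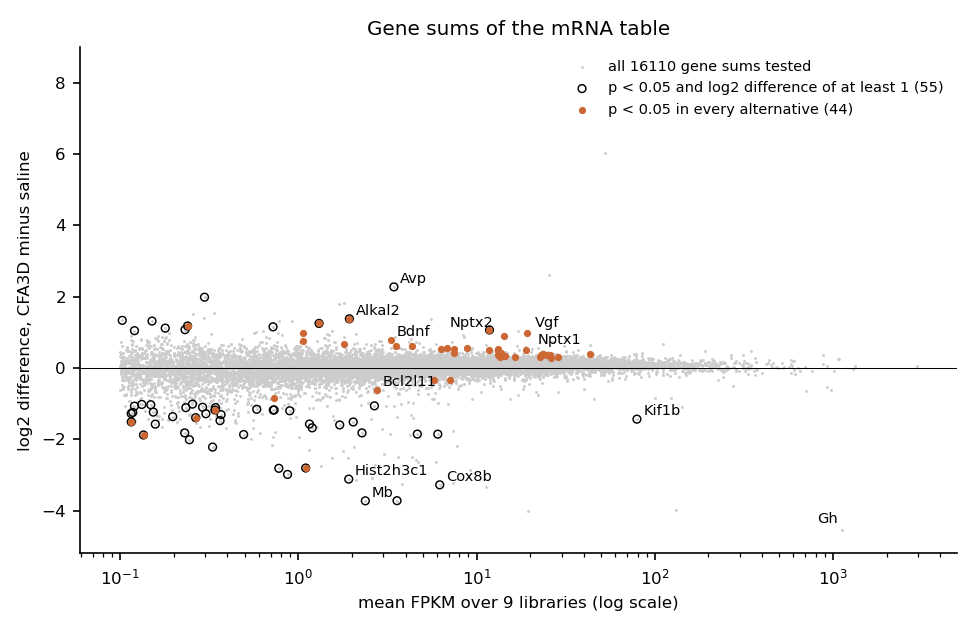
Mean FPKM over the 9 libraries (log axis) against the log2 difference of CFA3D from saline for 16110 gene sums (grey), with the 55 called gene sums circled and the 44 that kept p under 0.05 in every alternative in orange. Most orange points lie above 0 at differences under 1, whereas most circled points lie below 0, where muscle and fat genes such as Mb and Cox8b are found.

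Nptx2 had the smallest p of all 44. This gene (chr5:144545902-144557478, plus strand, GRCm38) encodes neuronal pentraxin 2, a secreted protein that gathers glutamate receptors at synapses. Its level was 8.90, 9.09 and 8.34 FPKM in saline and 14.5, 18 and 17.3 FPKM in CFA3D. The groups did not overlap, and the log2 difference was 0.91 ± 0.15 (SE; unadjusted p = 0.000143). Nptx1, its close relative, stood at 13.7, 13.9 and 13.9 FPKM in saline and at 17.2, 21.1 and 20.9 FPKM in CFA3D, a log2 difference of 0.50 ± 0.11 (SE; unadjusted p = 0.00163). On day 6, Nptx2 was at 21.8, 16.0 and 14.5 FPKM and Nptx1 at 26.3, 20.1 and 22.4 FPKM.

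Vgf, Bdnf and Alkal2 encode secreted signals of neurons. Vgf is the precursor of several neuropeptides and is known as a gene induced by nerve growth factor. It was listed at 8.64, 11.2 and 12.3 FPKM in saline and 16.2, 27.0 and 21.4 FPKM in CFA3D, with a log2 difference of 0.98 ± 0.21 (SE; unadjusted p = 0.000915). Bdnf, brain-derived neurotrophic factor, which nociceptors release onto neurons of the brainstem, was at 2.64, 2.22 and 2.34 FPKM in saline and 3.36, 4.48 and 4.88 FPKM in CFA3D (0.78 ± 0.16 on the log2 scale, SE; unadjusted p = 0.000784). Alkal2, a ligand of the receptor tyrosine kinases ALK and LTK, had the largest difference of these at 1.38 ± 0.29 (log2, SE; unadjusted p = 0.00103), from 1.34, 1.01 and 0.733 FPKM in saline to 2.26, 3.63 and 2.55 FPKM in CFA3D. All 3 genes were higher in each CFA3D library than in any saline library. On day 6, the levels were 29.2, 20.3 and 25.3 FPKM for Vgf, 3.6, 3.16 and 2.99 FPKM for Bdnf and 2.37, 2.25 and 1.27 FPKM for Alkal2.

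Receptors and regulators of nociceptors belonged to the same core. Ptgir, the receptor of prostacyclin, was at 10.7, 8.92 and 8.93 FPKM in saline and 12.3, 14.6 and 13.4 FPKM in CFA3D (0.50 ± 0.10 on the log2 scale, SE; unadjusted p = 0.000635). Gfra2, the co-receptor through which neurturin signals to Ret, was at 9.35, 11.0 and 9.55 FPKM in saline and 14, 14.1 and 13.5 FPKM in CFA3D (0.47 ± 0.09, SE; unadjusted p = 0.000639). Prdm12, a chromatin regulator required for nociceptors to form, rose from 18.3, 18.9 and 17.4 FPKM to 22.4, 24.7 and 23.0 FPKM (0.36 ± 0.08, SE; unadjusted p = 0.00116). Each of these genes had its lowest CFA3D library above its highest saline library, and none of the differences reached 1 on the log2 scale. Jun, a subunit of the AP-1 transcription factor that is induced by activity and by nerve injury, was at 19.2, 18.7 and 18.8 FPKM in saline and 21.7, 24.8 and 23.5 FPKM in CFA3D (0.30 ± 0.07, SE; unadjusted p = 0.00278).

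Ly86 encodes MD-1, the partner of the Toll-like protein RP105 on myeloid and B cells. It was at 7.04, 8.35 and 7.32 FPKM in saline, 10.1, 12.7 and 10.8 FPKM in CFA3D and 6.99, 8.24 and 8.36 FPKM on day 6, with a log2 difference on day 3 of 0.56 ± 0.12 (SE; unadjusted p = 0.00108). The day-3 pools were above all others. The summed level of the macrophage list did not separate the groups, at 240, 208 and 207 FPKM in saline and 220, 309 and 180 FPKM in CFA3D. Bcl2l11, which encodes the pro-apoptotic protein BIM, was among the 9 lower genes. It was at 3.75, 3.02 and 4.05 FPKM in saline and 2.41, 2.45 and 2.06 FPKM in CFA3D, so it fell by 0.62 ± 0.15 on the log2 scale (SE; unadjusted p = 0.00219). In bulk RNA, a change in the number of cells of a type and a change in RNA per cell cannot be told apart.

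**Figure D3:**
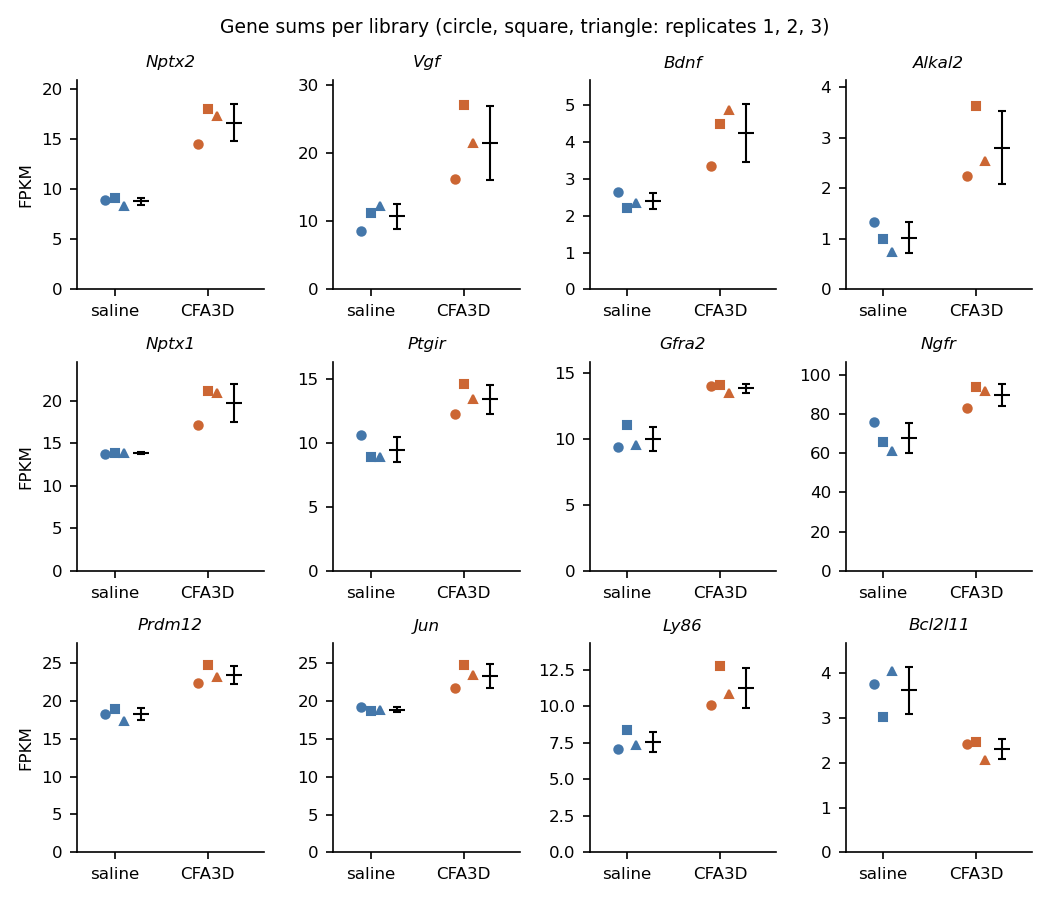
FPKM of 12 gene sums in the 3 saline (blue) and 3 CFA3D (orange) libraries, with the mean and SD beside each group and circles, squares and triangles for replicates 1, 2 and 3. Except for Bcl2l11, where CFA3D is lower, all CFA3D points lie above all saline points. The genes were picked by their p on these libraries, so this separation adds no evidence. Nptx2 moves from a mean of 8.78 to 16.6 FPKM.

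The rest of the core was mixed. Syngr3, a protein of synaptic vesicles, was higher by 0.36 on the log2 scale. Elfn1, an adhesion protein of synapses, differed by 0.42 and Insyn1, a component of inhibitory synapses, by 0.31. Cdk5r2 encodes p39, an activator of the kinase Cdk5, and was higher by 0.40. Ppp1r2, an inhibitor of protein phosphatase 1, had a difference of 0.40, and Sphk2, a sphingosine kinase, of 0.37. Spred2, a brake on Ras and MAP kinase signalling, was higher by 0.31. Vash1 (0.34), Chp1 (0.27), Pip4k2b (0.33), Samd14 (0.36), Tmem158 (0.41), Gatad1 (0.31), Mmgt2 (0.55), Zfp703 (0.53) and Mrpl58 (0.53) were also higher in all 3 CFA3D libraries. At low levels, Serpina3i, of a family of protease inhibitors with close copies that can share reads, went from 0.956, 0.366 and 0.783 FPKM to 1.34, 2.12 and 1.72 FPKM, and Loxl4, a lysyl oxidase that crosslinks collagen, from 0.652, 1.01 and 0.672 FPKM to 1.12, 1.65 and 1.34 FPKM. Usp49, Mis12, Smr2, Prr32, Klhdc4, Rsbn1 and the predicted gene Gm10800 complete the higher genes. Besides Bcl2l11, the lower genes were Zmym5, B9d2, Gm16253, Meig1, Gm17455, C130060K24Rik, Ces1d and Klhl31, and Ces1d and Klhl31 are known from fat or liver and from muscle. Ces1d stood at 0.318, 6.18 and 1.37 FPKM in saline and 0.102, 0.185 and 0.0958 FPKM in CFA3D, with its maximum in the saline library that was highest for muscle and fat markers, and the part of that tissue in the difference was not tested.

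Gene lists of pathways and cell types were then read by their counts and medians. The lists held 1039 distinct gene sums that were tested, of which 56 (5.39%) had an unadjusted p under 0.05, 41 higher and 15 lower, against 4.45% of all gene sums. Each list median below is to be read beside the median of 0.055 over all gene sums. Since that median lies above 0, most gene sums were positive, and counts of positive members are to be read beside it too.

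Neurotrophins, GDNF family ligands and their receptors had 15 tested members, of which 5 were higher, none was lower and 13 had a positive difference, with a median log2 difference of 0.11. The count of 5 was also found after quantile normalization. Leaving out saline replicate 2 gave 4 and leaving out saline replicate 3 gave 3. Besides Bdnf and Gfra2, the members that passed included the receptors Ngfr and Ret. Ngfr, the low-affinity receptor shared by the neurotrophins, was at 75.9, 65.9 and 61.0 FPKM in saline and 83.1, 94.0 and 91.7 FPKM in CFA3D, a log2 difference of 0.41 ± 0.11 (SE; unadjusted p = 0.00344). Ret was at 76.2, 73.8 and 61.3 FPKM in saline and 84.6, 87.1 and 91.5 FPKM in CFA3D (0.32).

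Markers of nociceptors had mostly positive differences. Of 13 non-peptidergic markers, 12 had a positive difference, 7 had all CFA3D libraries above all saline libraries, against 7.01% of all gene sums, and 5 had an unadjusted p under 0.05, with a median of 0.28. These 5 were Gfra2, Ret, Plcb3 (0.30), a phospholipase C of this class, and the lysophosphatidic acid receptors Lpar3 (0.36) and Lpar5 (0.40). Mrgprd, a defining receptor of the class, was at 11.5, 10.7 and 9.38 FPKM in saline and 13, 11.5 and 14.1 FPKM in CFA3D, where the groups met and the unadjusted p was 0.0529. P2rx3, an ATP-gated channel, was at 42.3, 39.4 and 24.6 FPKM in saline and 41.8, 33.8 and 37.1 FPKM in CFA3D, and the groups overlapped. The median was 0.21 and 1 member remained under 0.05 without saline replicate 3, 2 members were left after quantile normalization, and without saline replicates 2 and 3 the median was 0.07. The summed level of this list was lowest in saline replicate 3, at 202 FPKM against 248 to 284 FPKM in the other 5 libraries, and the part of the pituitary RNA of that library in these differences was not tested.

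Of the 8 peptidergic markers, 2 were higher, 1 was lower and the median was 0.23, or 0.01 without saline replicates 2 and 3. Calcb, which encodes the beta form of calcitonin gene-related peptide, was at 23.8, 20.6 and 19.9 FPKM in saline and 24.5, 26.1 and 31.4 FPKM in CFA3D (0.34), and Calca, the alpha form, was at 329, 291 and 222 FPKM and 338, 346 and 383 FPKM (0.36; unadjusted p = 0.0501). Calca did not pass, although its groups did not overlap. Sst, the neuropeptide somatostatin, was lower, with 2.73, 2.66 and 3.01 FPKM in saline and 1.89, 1.36 and 2.40 FPKM in CFA3D. Sst is known as a marker of itch neurons and acts to quieten neurons, and its difference was -0.58 ± 0.25 on the log2 scale (SE; unadjusted p = 0.046). General markers of sensory neurons had 3 of 14 members higher and 13 positive, with a median of 0.19. That median was 0.13 without saline replicate 3 and 0.13 after quantile normalization. The higher members were Prdm12, Pou4f1 (0.32), a transcription factor of sensory neurons, and Elavl4 (0.28), a neuronal RNA-binding protein.

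Among ion channels, the members that passed were few and all higher. Of all gene sums with an unadjusted p under 0.05, 81.9% were higher. Scn10a, the sodium channel Nav1.8 of nociceptors, was the member that passed of 15 sodium channel genes, at 72.9, 76.0 and 53.3 FPKM in saline and 88.4, 78.9 and 95.1 FPKM in CFA3D (0.39). Trpm8, the cold and menthol receptor, was the member of 15 TRP channel genes, at 24.8, 26.7 and 21.6 FPKM in saline and 31.7, 27.1 and 34.2 FPKM in CFA3D (0.34). The heat and capsaicin receptor Trpv1 was at 12.1, 10.8 and 9.68 FPKM in saline and 13.5, 13.2 and 13.1 FPKM in CFA3D, with an unadjusted p of 0.0906. Neither Scn10a nor Trpm8 kept an unadjusted p under 0.05 without saline replicate 3. Potassium channels had 4 of 32 higher, which were Kcnn1 (0.35), a calcium-activated channel, Kcnq5 (0.45), an M-current channel, Kcnd1 (0.23) and Kcnt1 (0.20), with a list median of 0.09. The acid-sensing channel Asic2 was higher at 0.27, with 11.0, 10.4 and 10.4 FPKM in saline and 12.7, 12.6 and 13.1 FPKM in CFA3D. Cacnb3 (0.31), a subunit of voltage-gated calcium channels, and Hcn4 (0.56), a pacemaker channel, passed among 19 calcium and HCN channel genes. No member passed among 13 purinergic receptors, 8 genes of the opioid system or 18 receptors of calcitonin gene-related peptide and serotonin, whose medians were 0.10, 0.01 and 0.04. The most abundant of these were P2ry1, at 16.2 ± 4.4 FPKM (SD, n = 3) in saline and 17.3 ± 0.18 FPKM in CFA3D besides P2rx3, the mu opioid receptor Oprm1, at 11.4 ± 3.1 and 12 ± 0.88 FPKM besides the pituitary hormone gene Pomc, and Htr3a, a serotonin-gated channel, at 43.5 ± 9.9 and 44.5 ± 2.3 FPKM.

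Immediate early genes had Jun as the 1 member past the test among 26, with 20 positive and a median of 0.14. Fos, the usual marker of recent activity, was at 1.69, 1.96 and 2.83 FPKM in saline and 1.82, 2.68 and 3.00 FPKM in CFA3D. Of 17 nerve injury genes, Jun was higher and Ecel1, a peptidase of injured neurons, was lower. Ecel1 was at 0.273, 0.339 and 2.19 FPKM in saline and 0.0415, 0.198 and 0.0834 FPKM in CFA3D, so its difference of -1.87 was -1.03 without saline replicate 3. Atf3, the most used marker of axon injury, stood at 3.11, 2.09 and 1.48 FPKM in saline and 1.90, 3.41 and 1.96 FPKM in CFA3D, and the groups overlapped.

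Few genes of inflammation passed the test within the ganglion on day 3. None of the 25 tested cytokines and chemokines had an unadjusted p under 0.05, although 19 had a positive difference, and their median was 0.09, or 0.27 without saline replicate 3 and -0.06 without CFA3D replicate 2. Il1b was at 0.25, 0.341 and 0.757 FPKM in saline and 0.142, 1.29 and 0.290 FPKM in CFA3D, and Ccl2 at 0.785, 1.19 and 1.16 FPKM and 0.540, 1.96 and 1.56 FPKM. Tnf was at 0.123, 0.0964 and 0.194 FPKM in saline and 0.362, 0.406 and 0.183 FPKM in CFA3D. For Il1b, Ccl2 and Tnf the groups overlapped. The most abundant cytokines were Il34, a growth factor of macrophages, at 9.77 ± 1.4 FPKM (SD, n = 3) in saline and 9.81 ± 1.0 FPKM in CFA3D, and the alarmin Il33 at 8.87 ± 0.86 and 9.68 ± 2.8 FPKM.

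Of 27 cytokine receptors, Il4ra was higher (0.25) and 21 were positive, with a median of 0.16. The 32 genes of NF-kappa B and Toll-like receptor signalling had none past the test and a median of 0.04. Nfkbia, the inhibitor that is induced when NF-kappa B is active, was at 14.2 ± 1.9 FPKM (SD, n = 3) in saline and 14.8 ± 4.2 FPKM in CFA3D. Interferon response genes were positive in 24 of 26 and had a median of 0.21, with Ifit2 past the test at 5.59, 5.64 and 4.95 FPKM in saline and 6.52, 6.69 and 6.67 FPKM in CFA3D (0.29 ± 0.09, SE; unadjusted p = 0.0108). All 13 antigen presentation genes were positive, with a median of 0.23 that was 0.08 without saline replicates 2 and 3, and none passed. Without CFA3D replicate 2, the library with the highest summed level of both lists, the medians of the interferon and antigen presentation lists were each -0.02. B2m, the light chain of MHC class I, was at 128 ± 15 FPKM (SD, n = 3) in saline and 166 ± 38 FPKM in CFA3D, and H2-D1 at 59.8 ± 7.4 and 71.5 ± 16 FPKM. Of 17 genes of prostaglandin and bradykinin signalling, Ptgir was the member past the test.

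Markers of glia had medians near that of all genes. Satellite glia markers (9 tested) had a median of 0.07 and Schwann cell myelin markers (16 tested) of 0.05, with none past the test. S100b was at 218 ± 5.9 FPKM (SD, n = 3) in saline and 240 ± 20 FPKM in CFA3D and Apoe at 373 ± 81 and 345 ± 48 FPKM. The myelin gene Pmp22 was at 935 ± 195 and 967 ± 92.2 FPKM, and its groups overlapped. Among 20 macrophage markers, Lyve1, found on macrophages along vessels and on lymphatic endothelium, was higher, at 0.683, 0.682 and 1.01 FPKM in saline and 1.17, 1.29 and 1.29 FPKM in CFA3D (0.62). Esam, a junction protein of endothelium, was the member past the test of 21 endothelial and mural markers (0.29). Fibroblast (12 tested), B cell (4), T and NK cell (8) and mast cell (6) markers had none past the test, with medians of 0.03, -0.32, 0.30 and -0.29. The T and NK cell median turned to -0.26 without CFA3D replicate 2 and the mast cell median to 0.34 without CFA3D replicate 3. Their most abundant members were Apod and Dcn, Cd79a and Cd79b, Nkg7 and Cd3e, and Kit and Tpsb2, and Cd79a, Cd79b, Nkg7 and Cd3e were each under 1 FPKM on average in both groups.

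Markers of blood had negative differences, and none passed the test. All 12 neutrophil granule genes had a negative difference, with a median of -0.72, and so did all 6 erythroid genes, with a median of -0.58. The neutrophil median was -0.35 without saline replicate 1, and the erythroid median was -0.21 without saline replicate 2. Summed neutrophil granule markers were at 140, 91.6 and 62.5 FPKM in saline and 46.2, 92.3 and 32.0 FPKM in CFA3D, and erythroid markers at 3183, 5790 and 2192 FPKM and 1836, 3863 and 1667 FPKM, so the groups overlapped in both. S100a9, a calcium-binding protein of neutrophils, was at 31.7 ± 11 FPKM (SD, n = 3) in saline and 15.9 ± 9.4 FPKM in CFA3D, S100a8 at 24.5 ± 8.8 and 14.6 ± 9.0 FPKM. Of the globin genes, Hba-a1 was at 1259 ± 693 and 791 ± 369 FPKM and Hbb-bs at 1167 ± 508 and 825 ± 458 FPKM. The spread behind the test came from all 9 libraries, day 6 included. Summed neutrophil granule markers were at 2956 FPKM in CFA6D replicate 6, against 156 and 146 FPKM in CFA6D replicates 4 and 5. Clustered histone genes, read next, were at 3009 FPKM against 791 and 753 FPKM. Macrophage markers were at 435 FPKM in CFA6D replicate 6, against 132 and 187 FPKM in CFA6D replicates 4 and 5. Proliferation genes were at 96.4 FPKM against 45.1 and 47.5 FPKM, and bone and cartilage markers at 84.0 FPKM against 7.47 and 31.3 FPKM. Not passing therefore says less about day 3 for the genes of these lists.

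Clustered histone genes, whose transcripts are not polyadenylated and are made mainly in dividing cells, had mostly negative differences, and few passed. Of 63 tested, 57 had a negative difference, 12 had all CFA3D libraries below all saline libraries, against 2.12% of all gene sums, and 3 passed the test, with a median of -0.19. Hist2h3c1, at 3.62, 3.23 and 2.78 FPKM in saline and 0.535, 0.519 and 0.0388 FPKM in CFA3D, is nearly identical to Hist2h3c2, which overlapped between groups, so reads could be split between them. The lncRNA gene Gm20634 (chr3:96245554-96248509, plus strand) spans all of Hist2h3c1. It moved the other way, at 0, 1.18 and 0 FPKM in saline and 1.64, 2.40 and 2.64 FPKM in CFA3D. How reads were split between Hist2h3c1 and Gm20634 was not tested. Hist1h2br was at 3.95, 8.71 and 10.8 FPKM in saline and 2.42, 1.06 and 2.68 FPKM in CFA3D. Hist1h2bq, at 3.94, 8.57 and 10.7 FPKM and 2.41, 1.58 and 1.80 FPKM, repeated those saline values almost exactly, so both may count the same reads. Another member, Hist2h2aa1, named here for its pattern after the values were seen, was listed at 0, 71.0 and 0 FPKM in saline and 67.7, 39.0 and 72.8 FPKM in CFA3D, an alternation that makes its level uncertain in every library. Proliferation genes (24 tested) had 7 positive, a median of -0.13 and none past the test, with Pcna at 19.0 ± 2.2 FPKM (SD, n = 3) in saline and 20.5 ± 1.1 FPKM in CFA3D and Mcm7 at 7.57 ± 0.40 and 6.67 ± 0.77 FPKM.

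Heat shock and cholesterol genes had mostly positive differences. In the heat shock list, 15 of 16 were positive and 4 passed, with a median of 0.16, but no member passed without saline replicates 2 and 3. Hspd1, the mitochondrial chaperonin, was at 45.7, 45.7 and 46.9 FPKM in saline and 49.1, 54.3 and 58.2 FPKM in CFA3D (0.22), and the others were Hspb1 (0.26), Hspb8 (0.26) and Dnajb1 (0.31), chaperones of damaged proteins. In the cholesterol synthesis list, 20 of 22 were positive and 3 passed, with a median of 0.13, or -0.03 without saline replicates 2 and 3. Of these, Mvk (0.28) and Tm7sf2 (0.33) encode enzymes of the pathway. For Hspb1, Hspb8, Dnajb1 and Mvk, saline replicate 1 was the saline library nearest to CFA3D.

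The circadian list (20 tested) had 1 gene higher, the clock repressor Bhlhe41 (0.32), and 1 lower. Nuclear genes of oxidative phosphorylation (84 tested) had 2 higher, the cytochrome c oxidase subunits Cox4i1 (0.46) and Cox4i2 (0.65), and 3 lower, Ndufa13 (-0.20), Atp5o (-0.22) and the brown fat and muscle gene Cox8b, with a median of 0.01. Of 80 ribosomal protein genes, Rpl36a was lower, at 66.8, 72.7 and 77.8 FPKM in saline and 64.2, 51.9 and 58.5 FPKM in CFA3D (-0.32). Of 28 apoptosis genes, Bcl2l11 alone passed. None passed among 13 genes of the mitochondrial genome, 41 collagens, 56 clustered protocadherins, 22 genes of the MAP kinase cascade and 17 glucocorticoid targets, whose medians were 0.02, 0.02, -0.02, 0.11 and 0.03. Mapk3, the kinase ERK1, was at 182 ± 34 FPKM (SD, n = 3) in saline and 202 ± 6.9 FPKM in CFA3D.

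**Figure D4:**
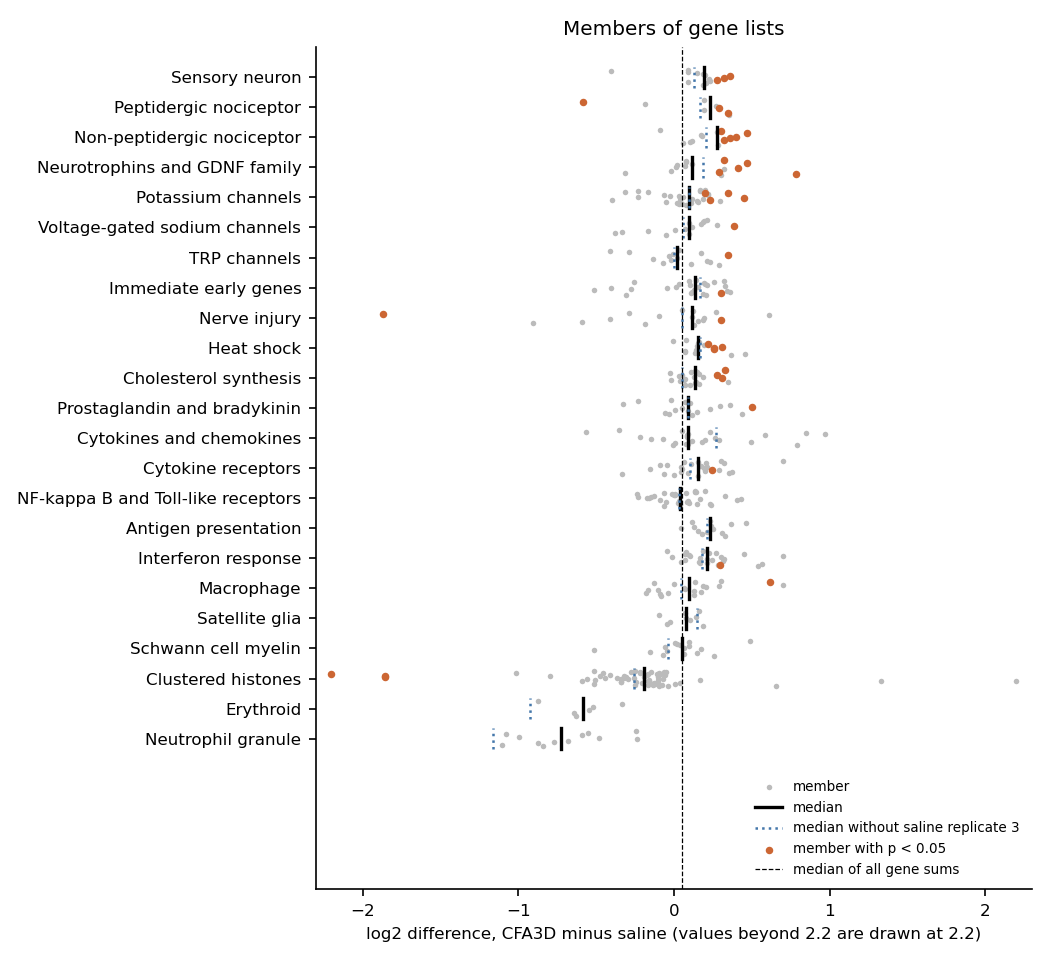
Log2 difference of CFA3D from saline for the tested members of 23 gene lists, with members at an unadjusted p under 0.05 in orange, the list median as a black bar, the median without saline replicate 3 dotted and the median of all gene sums (0.055) dashed. Nociceptor lists lie to the right, with medians of 0.23 and 0.28, and neutrophil granule, erythroid and histone lists to the left, with medians of -0.72, -0.58 and -0.19.

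The 43 gene sums called lower included many genes known from muscle and fat. The highest of the 6 libraries was saline replicate 2 for 25 of them, saline replicate 3 for 15 and saline replicate 1 for 3. Mb, myoglobin, was at 2.96, 12 and 0.440 FPKM in saline and 0.0367, 0.0452 and 0.334 FPKM in CFA3D. Cox8b was at 0.646, 49.9 and 1.28 FPKM in saline and 0.247, 0.267 and 0.344 FPKM in CFA3D, and the adipocyte genes Cidec and Adipoq peaked in the same library at 6.92 and 5.91 FPKM, with Adipoq listed at 0 in all CFA3D libraries. Of 18 skeletal muscle markers, 2 passed with all libraries, none without saline replicate 2 and 14 without saline replicate 3. Of 9 white adipocyte markers, these counts were 2, 0 and 7. Anterior pituitary markers had a median of -2.52 that was -0.13 without saline replicate 3, where Gh, growth hormone, stood at 9120 FPKM, against 5.10 to 92.7 FPKM in the other 5 libraries. Brown adipocyte markers had Cox8b past the test of 8, and bone and cartilage (12 tested) and epidermis (3 tested) markers had none, with medians of -0.39 and -1.21. The bone and cartilage median was -0.02 without saline replicate 3, and the epidermis median -0.31 without saline replicate 1. Central nervous system markers had none past the test and a median of -0.37 that was 0.14 without saline replicate 3, and their most abundant member Mobp, a protein of oligodendrocyte myelin, was at 135, 119 and 332 FPKM in saline and 153, 182 and 171 FPKM in CFA3D. Of the 43 lower calls, 22 were kept without saline replicate 2, 28 without saline replicate 3 and 11 without both.

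Among the genes called lower, the 10 with the smallest p were Hist2h3c1, C130060K24Rik, Klhl31, Gm17455, Meig1, Aloxe3, Slc27a2, Asb16, Ccm2l and Ces1d. Aloxe3, a lipoxygenase of the epidermis, was at 0.216, 0.340 and 0.332 FPKM in saline and 0.106, 0.0797 and 0.0971 FPKM in CFA3D. Ccm2l, a gene of endothelial junctions and vessel growth, was at 1.62, 2.17 and 1.59 FPKM in saline and 0.866, 0.381 and 0.440 FPKM in CFA3D. Both were separated between groups at low levels.

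Kif1b, a kinesin that carries mitochondria and synaptic vesicle precursors along axons, was the most abundant called gene and fell by 1.44 on the log2 scale. Its gene sum was 117, 99.5 and 94.7 FPKM in saline and 35.2, 33.5 and 46.8 FPKM in CFA3D. The difference lay in 1 of its 11 transcripts, ENSMUST00000060537, at 82.8, 72.9 and 71.2 FPKM in saline, 3.32, 3.40 and 21.3 FPKM in CFA3D and 101, 3.13 and 92.1 FPKM on day 6. The other 10 transcripts together were at 33.8, 26.7 and 23.4 FPKM in saline and 31.9, 30.1 and 25.5 FPKM in CFA3D. A low level of this transcript was thus also found in 1 library of day 6, and the sum of the other transcripts overlapped between groups.

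Of the 12 gene sums called higher, the 10 with the smallest p were Gm10800, Alkal2, Serpina3i, Avp, Prr32, Mybph, Cer1, Wfdc18, Mcoln2 and Cblc. Avp, the precursor of the hypothalamic hormone vasopressin, was at 0.900, 1.24 and 0.880 FPKM in saline and 2.31, 8.79 and 6.80 FPKM in CFA3D, and the gene next to it, Oxt (oxytocin), at 0.626, 0.656 and 0.185 FPKM and 0.338, 3.01 and 0.359 FPKM. Their summed list was highest in CFA3D replicate 2, and the part of hypothalamic RNA in the level of Avp was not tested. Mcoln2, a lysosomal cation channel of immune cells, was at 0.0391, 0.0432 and 0.0423 FPKM in saline and 0.133, 0.417 and 0.140 FPKM in CFA3D. Mybph, a myosin-binding protein of muscle, was at 0.204, 0.477 and 0.538 FPKM and 0.933, 1.36 and 0.716 FPKM. Wfdc18 had 0 FPKM in each saline library and 0.251, 0.0471 and 0.210 FPKM in the CFA3D libraries. Of the 12, 8 were kept without saline replicate 2, 6 without saline replicate 3 and 4 without both.

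A list of 45 genes was taken from those the study's main text names as changed. It does not hold all the genes the study names, and the study chose them on these samples, so their direction is not independent evidence. The list mixes genes that the study gives as increased with others it gives as decreased, such as Scn8a and Oprm1 on CFA3D. A count of positive differences therefore does not measure agreement with the study. Its methods name a transcript expression analysis, so its changes may be those of single transcripts rather than of gene sums. At the level of gene sums, 6 had an unadjusted p under 0.05, all higher, and 32 were positive, with a median of 0.10. Besides Avp, Bdnf and Trpm8 these were Sbf1, a regulator of myotubularin phosphatases, at 27.7, 25.2 and 26.8 FPKM in saline and 30.8, 37.1 and 30.9 FPKM in CFA3D (0.30), Rgs3, a regulator of G-protein signalling (0.17), and Tardbp. Tardbp encodes the RNA-binding protein TDP-43 and was at 31.1, 16.1 and 13.1 FPKM in saline and 27.8, 32.2 and 34.2 FPKM in CFA3D. Its difference of 0.74 rested on saline replicates 2 and 3 and was 0.01 without them. Of the others, Prkcd (0.24; unadjusted p = 0.0514) and Pnpla2 (-0.30; unadjusted p = 0.0758) had the smallest p. The remaining genes, which were Htr6, Npy2r, Rapgef3, Nos1, Cxcl12, Madd, Dnmt1, Dnmt3a, Il10ra, Dst, Tecpr2, Irak1, Flna, Ciita, Itgam, Col7a1, Creb1, Nf1, Slc2a1, Gtf2ird1, Nsd1, Kcnn2, Prkar1b, P2ry12, Htr2c, Sgk3, Wwox, Scn8a, Scube3, P3h1, Capn3, Tnip1, Nr3c1, Alg13, Gnas, Flcn and Oprm1, lay between -0.31 (Htr2c) and 0.49 (Npy2r).

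The 6 genes that the study places at the centre of its network on CFA3D, Nfkb1, Tnf, Hdac1, Ctnnb1, Akt2 and Ephb2, had none past the test and a median of 0.03. Nfkb1, a subunit of NF-kappa B, was at 16.1, 12.3 and 14.3 FPKM in saline and 13.7, 16.0 and 11.2 FPKM in CFA3D. Hdac1, a histone deacetylase, was at 15.6, 13 and 13.4 FPKM and 13.3, 16.5 and 12.8 FPKM, and Ctnnb1, beta-catenin, at 139, 108 and 107 FPKM and 119, 136 and 107 FPKM. In each of these 3 the groups overlapped. A list of 11 annotated lncRNAs, also a part of those the study names, had 10 tested and none past the test, with a median of -0.05. They were Pvt1, Snhg1, Gas5, Snhg14, Meg3, 9630001P10Rik, D830039M14Rik, 5930412G12Rik, BC002059 and Gm9885, and A730018C14Rik was under the minimum level. The nearest was 5930412G12Rik, at 0.405, 0.552 and 0.385 FPKM in saline and 0.583, 0.861 and 0.651 FPKM in CFA3D (0.54; unadjusted p = 0.0505). Of these lncRNAs, 9630001P10Rik, D830039M14Rik, A730018C14Rik, 5930412G12Rik, BC002059 and Gm9885 were also measured by RT-PCR at the time of CFA3D. The study, which made these measurements, reports that the levels accorded with its sequencing. Its changes may be those of single transcripts, whereas gene sums were tested here.

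Single transcripts gave the differences that passed adjustment. Of 66562 mRNA transcripts tested, 1455 (2.19%) were called and 17 (0.0255%) from 16 genes had an adjusted p under 0.05 in limma with Benjamini-Hochberg adjustment. For 13 of the 16 genes, another transcript held most bases of the one that passed and moved the other way (unadjusted p under 0.05 in limma). This partner was picked for its opposite movement, as the one with the smallest such p among the gene's tested transcripts. Of the partner's own bases, the shared part was only 25.9% in Sbf1, 23.4% in Ing3 and 48.9% in Cdip1. With short reads the split of a gene's reads between such transcripts is an estimate, so a level listed at 0 may be a failed estimate. No fold change is given where a whole group was at 0.

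Lrch1, a scaffold protein with leucine-rich repeats and a calponin homology domain, was the gene in which both partners passed. ENSMUST00000228252 was at 6.09, 4.28 and 3.72 FPKM in saline and 0.636, 0.399 and 0.408 FPKM in CFA3D (-3.04 on the log2 scale; adjusted p = 0.0240 in limma). ENSMUST00000088970 went from 0.634, 0.615 and 1.09 FPKM to 3.56, 3.55 and 2.89 FPKM (2.0; adjusted p = 0.0407 in limma). The gene sum was lower by far less (-0.44), and day 6 resembled day 3, at 0.244 to 0.532 and 3.56 to 3.78 FPKM for these transcripts. They share 3115 bases, and the second differs by an added exon of 81 coding bases and a longer last exon. To show how partners can differ, 1 coding stretch found in only 1 of them is printed here for 5 genes from the GRCm38 genome with GENCODE release M21 exons, 5′ to 3′ on the strand of the gene, with the differing bases in capitals and 15 shared flanking coding bases on each side in lower case. The partners of all 5 genes also differ outside these stretches, those of Ing3 also by further coding stretches of 43, 202, 39 and 114 bases.
Lrch1, chr14:74794911-74794991, minus strand, in ENSMUST00000088970 and not in ENSMUST00000228252: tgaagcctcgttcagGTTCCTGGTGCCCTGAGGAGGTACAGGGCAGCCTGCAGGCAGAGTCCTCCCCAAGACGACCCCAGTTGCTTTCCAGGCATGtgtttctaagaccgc
Acot8, chr2:164802997-164803133, minus strand, in ENSMUST00000017451 and not in ENSMUST00000134611: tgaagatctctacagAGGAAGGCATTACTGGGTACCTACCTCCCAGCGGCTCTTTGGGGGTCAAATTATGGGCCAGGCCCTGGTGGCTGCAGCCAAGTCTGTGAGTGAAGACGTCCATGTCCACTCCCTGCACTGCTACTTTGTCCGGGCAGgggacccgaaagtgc
Ing3, chr6:21950038-21950109, plus strand, in ENSMUST00000031680 and not in ENSMUST00000151473: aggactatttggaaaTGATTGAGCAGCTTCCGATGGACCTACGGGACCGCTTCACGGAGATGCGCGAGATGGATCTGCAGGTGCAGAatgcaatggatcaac
Trappc1, chr11:69324824-69324853, plus strand, in ENSMUST00000102601 and not in ENSMUST00000108662: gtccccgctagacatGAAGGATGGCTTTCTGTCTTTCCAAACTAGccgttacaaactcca
Tnpo3, chr6:29554963-29554980, minus strand, in ENSMUST00000115251 and not in ENSMUST00000012679: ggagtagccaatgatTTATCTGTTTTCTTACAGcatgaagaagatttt

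The Lrch1, Ing3, Trappc1 and Tnpo3 stretches are whole multiples of 3 bases, whereas the 137 bases of Acot8 shift the reading frame if skipped. Ing3 encodes a reader of histone methylation in the NuA4 acetyltransferase complex. Its ENSMUST00000151473 was at 1.37, 1.67 and 1.80 FPKM in saline and listed at 0 in all CFA3D libraries (adjusted p = 0.000216 in limma), while ENSMUST00000031680 was at 0.791, 0.481 and 0.934 FPKM and 2.58, 1.57 and 1.5 FPKM. The Ing3 gene sum was also lower, by 0.47 on the log2 scale, with 4.31, 4.96 and 5.19 FPKM in saline and 3.42, 3.63 and 3.30 FPKM in CFA3D. On day 6, ENSMUST00000151473 was back at 2.03, 2.02 and 1.64 FPKM. Acot8, a peroxisomal thioesterase, had ENSMUST00000017451 listed at 0 in saline and at 0.734, 0.561 and 0.774 FPKM in CFA3D (adjusted p = 0.0215 in limma), while ENSMUST00000134611 was at 2.16, 2.37 and 2.15 FPKM and 1.40, 1.00 and 1.94 FPKM. Its gene sum differed by -0.08, within the spread of pools. Trappc1, a subunit of the TRAPP vesicle tethering complex, had ENSMUST00000108662 at 2.48, 2.99 and 3.28 FPKM in saline and listed at 0 in CFA3D and on day 6 (adjusted p = 0.000216 in limma), and ENSMUST00000102601 at 0.0461, 0.419 and 0.235 FPKM in saline and 3.84, 1.25 and 1.88 FPKM in CFA3D.

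Tnpo3, an importin of splicing factors, had the transcript with the smallest adjusted p. ENSMUST00000115251 was at 0.0128, 0.0249 and 0.0269 FPKM in saline and 4.64, 5.86 and 4.81 FPKM in CFA3D (5.42 on the log2 scale; adjusted p = 2.64e-05 in limma), and it stayed at 4.65 to 5.66 FPKM on day 6. Its partner ENSMUST00000012679 was at 4.42, 3.26 and 7.30 FPKM and 1.67, 2.06 and 1.51 FPKM, and the gene sum differed by -0.09. D130043K22Rik had ENSMUST00000141572, annotated as a target of nonsense-mediated decay, listed at 0 in saline and on day 6 and at 3.96, 4.71 and 3.86 FPKM in CFA3D (adjusted p = 0.00016 in limma). Its partner ENSMUST00000006893 was at 15.9, 14.7 and 12.97 FPKM and 11.7, 11.6 and 12.98 FPKM, so its groups met, and the gene sum differed by 0.17. Sbf1 had ENSMUST00000175778 listed at 0 in saline, at 3.62, 4.70 and 3.61 FPKM in CFA3D and at 1.95 to 3.51 FPKM on day 6 (adjusted p = 0.000183 in limma), with ENSMUST00000124576 at 4.59, 4.91 and 5.75 FPKM in saline and 1.28, 0.899 and 0.612 FPKM in CFA3D.

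Rbm6, an RNA-binding splicing regulator, had ENSMUST00000194436 at 0.010, 0.0805 and 0.0244 FPKM in saline and 3.49, 3.49 and 2.76 FPKM in CFA3D (4.62 on the log2 scale; adjusted p = 0.000216 in limma). ENSMUST00000182092, a retained-intron transcript of Rbm6, was at 2.25, 1.57 and 1.76 FPKM and 0.669, 0.911 and 0.605 FPKM. L3mbtl2, a Polycomb protein, had ENSMUST00000172748 at 1.73, 1.49 and 1.21 FPKM in saline and listed at 0 in CFA3D (adjusted p = 0.000469 in limma), with ENSMUST00000172620 at 0.824, 0.965 and 1.05 FPKM and 2.15, 1.97 and 1.81 FPKM. On day 6 both L3mbtl2 transcripts were at the level of saline, at 1.39 to 1.99 and 0.823 to 0.855 FPKM. Irak1, a kinase below Toll-like and interleukin-1 receptors, had ENSMUST00000068286 listed at 0 in saline and at 0.398, 0.375 and 0.430 FPKM in CFA3D (adjusted p = 0.0312 in limma), with ENSMUST00000114354 at 1.34, 1.80 and 2.09 FPKM and 0.736, 0.892 and 0.785 FPKM. The gene sums of Rbm6, L3mbtl2 and Irak1 differed by 0.17, 0.15 and 0.01 on the log2 scale and none passed. Cdip1, a pro-apoptotic protein of the endosome, had ENSMUST00000117713 listed at 0 in saline and on day 6 and at 1.22, 5.17 and 4.45 FPKM in CFA3D (adjusted p = 0.0237 in limma), and its gene sum was lower by 0.31.

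**Figure D5:**
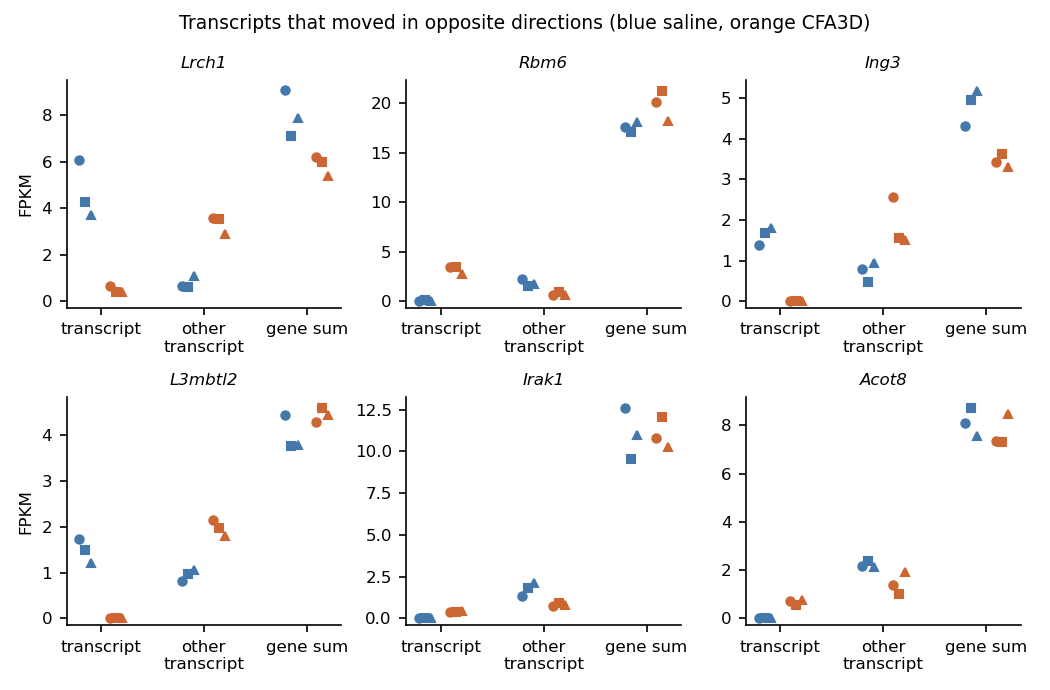
FPKM of a transcript with an adjusted p under 0.05, of the other transcript that moved the other way and of the gene sum, for 6 genes, in the 3 saline (blue) and 3 CFA3D (orange) libraries, with circles, squares and triangles for replicates 1, 2 and 3. The paired transcripts were picked for opposite movement, and in Irak1 and Acot8 the other transcript stays the higher in every library. The gene sums of Rbm6, L3mbtl2 and Irak1 stay within 0.17 on the log2 scale, and those of Lrch1 and Ing3 are lower in CFA3D.

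In Rsbn1, Klhdc4 and Cbln2 the transcript and the gene sum moved in the same direction. Rsbn1, a nuclear protein, had ENSMUST00000151927 at 0.224, 0.0378 and 0.0952 FPKM in saline and 2.2, 2.49 and 2.45 FPKM in CFA3D (3.59 on the log2 scale; adjusted p = 0.0149 in limma), and its gene sum went from 2.48, 2.15 and 3.33 FPKM to 3.51, 3.97 and 4.66 FPKM. Klhdc4, a kelch-domain protein, had the retained-intron transcript ENSMUST00000174206 at 0.195, 0.254 and 0.138 FPKM and 1.97, 2.64 and 2.27 FPKM (3.03; adjusted p = 0.0064 in limma), with a gene sum higher by 0.53. Cbln2, a secreted organiser of synapses, had ENSMUST00000169470 at 3.24, 2.59 and 1.73 FPKM in saline and 0.0029, 0 and 0 FPKM in CFA3D (adjusted p = 0.000469 in limma). Its gene sum was lower by 0.52, and day 6 was at 2.73, 1.90 and 2.64 FPKM. Rsbn1 and Cbln2 also had a partner that moved the other way. ENSMUST00000068879 held 96.8% of the bases of the Rsbn1 transcript and was lower by 0.57 (unadjusted p = 0.0144 in limma). ENSMUST00000122079 held 99.9% of those of the Cbln2 transcript and was higher (unadjusted p = 0.000353 in limma). How reads were split within these pairs was not tested. Gpatch4 (ENSMUST00000194258) and Fech (ENSMUST00000237717), the last enzyme of haem synthesis, had transcripts listed at 0 in saline and at 0.557 to 0.747 and 0.514 to 0.576 FPKM in CFA3D, with gene sums that differed by 0.04 and -0.19. Among all transcripts, 13 (0.0195%) were listed at 0 in every saline library and above 0.5 FPKM in every CFA3D library, and 6 (0.00901%) the reverse.

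Long noncoding RNAs gave 46 calls among 4354 gene sums tested (1.06%), 20 (0.459%) higher and 26 (0.597%) lower, and none passed adjustment, with 164 (3.77%) at an unadjusted p under 0.05 in limma. The CFA3D libraries lay above all saline libraries for 16 of the 46 and below for 19, against 4.29% and 3.93% of all lncRNA gene sums. The calls were made on these same libraries, so their separation adds no evidence of its own. The 5 higher calls with the smallest p were MSTRG.3460.1, AC122818.1, ENSMUST00000238447, Gm42463 and MSTRG.6753.2, of which MSTRG.3460.1, MSTRG.6753.2 and ENSMUST00000238447 were not found in the GENCODE annotation and so have no position here. The study also names MSTRG.3460.1 and MSTRG.6753.2. It measured both by RT-PCR on day 3 and reports that their levels accorded with its sequencing. MSTRG.3460.1 was at 0, 0.0724 and 0.271 FPKM in saline and 4.57, 2.52 and 4.80 FPKM in CFA3D (4.40 on the log2 scale), and MSTRG.6753.2 at 0, 0 and 0.0710 FPKM and 5.89, 7.27 and 1.08 FPKM. Gm42463, an intronic lncRNA at chr3:94413401-94418286, was at 0.0732, 0.261 and 0.0473 FPKM and 0.713, 0.628 and 0.577 FPKM (1.81). These 3 were separated between groups.

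The 5 lower lncRNA calls with the smallest p were Gm14488, Gm45846, Gm17115, Gm42413 and Gm14104. Gm45846, an intergenic RNA at chr7:123031374-123169678, was at 1.30, 0.770 and 1.41 FPKM in saline and 0.481, 0.457 and 0.542 FPKM in CFA3D (-1.05). Gm14488 was at 0.568, 0.471 and 0.873 FPKM and 0.261, 0.206 and 0.248 FPKM (-1.09). Gm42413 (-1.17) and Gm14104 (-1.04) are annotated as antisense, and since the strand setting of the counting is not given in the sources used here, their reads and those of the genes opposite cannot be told apart.

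Other noncoding RNAs gave 175 calls among 7753 gene sums tested (2.26%), 99 (1.28%) higher and 76 (0.98%) lower, and none passed adjustment, with 345 (4.45%) at an unadjusted p under 0.05 in limma. Among these calls, 67 lay above all saline libraries and 58 below, against 4.49% and 4.11% of all gene sums of this table. As for the lncRNAs, the calls were made on these same libraries, so this separation adds no evidence. Small nucleolar RNAs, which guide modification of ribosomal RNA, were found on both sides. Snord88a (chr7:44250135-44250224, plus strand) was at 0.0150, 0.00553 and 0.00907 FPKM in saline and 0.459, 0.794 and 0.355 FPKM in CFA3D (2.47), and Snord70 (chr1:59691934-59692020, plus strand) at 0.739, 0.556 and 0.599 FPKM and 0.157, 0.103 and 0.203 FPKM (-1.54). Gm22980, a snoRNA gene on chromosome 4, was at 2.54, 2.09 and 2.47 FPKM in saline and 1.05, 0.932 and 1.05 FPKM in CFA3D (-1.15; adjusted p = 0.583 in limma). These RNAs are about as short as a sequenced fragment, and their saline and CFA3D values did not overlap.

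Besides Snord88a, the higher calls with the smallest p were the snoRNA genes Gm24872 (1.91) and Gm23713 (1.92) and the processed pseudogenes Gm15565 (1.70) and Gm14581 (1.70). Besides Snord70 and Gm22980, the lower calls were the processed pseudogene Gm38038, at 1.29, 0.893 and 0.987 FPKM in saline and 0.341, 0.0965 and 0.216 FPKM in CFA3D (-1.92; adjusted p = 0.583 in limma), the immunoglobulin segment Ighv8-8 (-2.03) and Gm25427 (-1.69). Processed pseudogenes are near copies of their parent genes, so their reads are uncertain.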

How the data were processed

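RNA of the TG was measured by the authors in 9 libraries, and the 6 of saline and CFA3D are compared here. For each transcript, the authors deposited its FPKM in every library, with mRNAs, lncRNAs and other noncoding RNAs in a table each. Their methods name Trimmomatic and the GRCm38 genome and stranded libraries depleted of ribosomal RNA, whereas the processing notes of the labels name Bowtie 0.12.2 and mm8. Which of them made the FPKM values is not given in the sources used here. Because FPKM was scaled and split between transcripts by the authors, levels of short RNAs, near-identical genes and overlapping transcripts are the least certain.

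FPKM values were joined by transcript name to GENCODE release M21 (GRCm38), which held 101539 of 102122 mRNA, 15370 of 15657 lncRNA and 24532 of 24718 other noncoding transcripts, and were added up per gene within a table. Coordinates are those of the annotation. No per-sample column was left out (0 columns). Depth was estimated from the value of a single read pair, read off where products of length and low FPKM cluster.

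Differences were tested on log2(FPKM + 0.1) with limma 3.58.1 in R 4.3.3, in a model of the 3 groups over all 9 libraries with empirical Bayes moderation and a trend. Features averaging 0.1 FPKM or more were tested. Called features had an unadjusted p under 0.05 with a log2 difference of 1 or more in size, and Benjamini-Hochberg adjustment ran over each table. The script was tested on simulated data. Lists are described by counts and medians only. As alternatives served pseudocounts of 0.01 and 1, a mean of at least 1 FPKM, no filter, quantile normalization, a fit of the 6 libraries alone, the replicate number as a block, the highest transcript in place of the gene sum and each library left out. Leaving out saline replicates 2 and 3 together was added after seeing the data.

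The members and gene lists were chosen with earlier results of these data known. The text names the 10 called gene sums with the smallest p in each direction, up to 4 members of a list that passed (otherwise the 2 most abundant), the genes of 3 lists taken from the study's text, every transcript with an adjusted p under 0.05, the 5 lncRNA and other noncoding calls with the smallest p in each direction and up to 3 leading markers of other tissues. It also names the 44 gene sums that kept their p in every alternative, and members such as Fos, Atf3, Il1b, Ccl2, Calca, Trpv1, Mrgprd and P2rx3 were added after their values were seen. The rest ran in Python 3.11.15 (matplotlib 3.10.9, numpy 2.4.6, pandas 2.3.3). The circRNA, RT-PCR and behavioural data were not used here. Some genes counted in the lists are not reported here by name.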

Additional observations from a re-analysis of the deposited data

How the results depend on the processing

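Counts of calls depended on low values and on the saline libraries. The 55 called gene sums of the mRNA table were 9 with a pseudocount of 1, 18 with a mean of at least 1 FPKM, 157 with the highest transcript per gene, and 45 to 106 when single libraries were left out (102, 90 and 106 without saline replicates 1, 2 and 3). Without saline replicates 2 and 3 together there were 103, in a fit that assumes the lone saline library to vary like the other groups. The 717 gene sums at an unadjusted p under 0.05 were 490 to 1523 when single libraries were left out, with the most without saline replicate 1. The 1455 called transcripts were 248 with a pseudocount of 1, 353 with a mean of at least 1 FPKM and 2958 without saline replicates 2 and 3. The 17 transcripts with an adjusted p under 0.05 in limma were 10 with a mean of at least 1 FPKM, 27 with no filter, 159 without saline replicates 2 and 3 and 18 to 35 when single libraries were left out, with 35, 26 and 32 without saline replicate 1, saline replicate 3 and CFA3D replicate 1. For lncRNAs the 46 calls were 81 and 4 with pseudocounts of 0.01 and 1, 4 with a mean of at least 1 FPKM and 137 without saline replicates 2 and 3, and for other noncoding RNAs the 175 calls were 6, 10 and 365 with a pseudocount of 1, a mean of at least 1 FPKM and without these replicates. These totals count whichever features passed in a setting, so they do not show how many of the original ones were kept. Of the 17 transcripts, 9 kept an adjusted p under 0.05 in limma in the fit of the 6 libraries alone. Without saline replicates 1, 2 and 3 in turn, 12, 10 and 12 kept it. Without CFA3D replicates 1, 2 and 3 in turn, 12, 10 and 9 did. With no filter and with quantile normalization, 16 were kept in each. A higher pseudocount shrinks the fold change of low genes and a higher minimum tests fewer of them. The cause of the other changes was not tested.

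With the highest transcript per gene, the log2 difference of Plcb3 was -0.19 and that of Hist1h2bq 2.41, both reversed. No other of the 101 gene sums named for passing a test, and none of the 17 transcripts, changed direction under an alternative. Members named without passing were not held to this, and some turned when 1 library was left out, such as Nos1 (-0.57 to 0.20) and Htr2c (-0.96 to 0.35). Of the 101 gene sums, 70 kept their call without saline replicate 3, 71 without saline replicate 2 and 48 without both.

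Replicate numbers of saline and CFA3D are shared, but deviations of same-numbered libraries correlated at 0.09, -0.08 and 0.03, so the numbers do not pair the samples, and they were not best matched to their own number. With the replicate number as a block, 116 gene sums, 1536 transcripts, 54 lncRNAs and 194 other noncoding RNAs were called, 498 gene sums had an unadjusted p under 0.05 and 0 of the 17 transcripts had an adjusted p under 0.05 in limma, which spends degrees of freedom on the block. FPKM values hold no counts, so the depth behind a value is known only by the estimate above, and genes averaging under 0.1 FPKM were tested only in the setting with no filter.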
